A study of Bos taurus with 24 samples.

Results

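The features described here are those in which the bovine annotation joined overlapping genes into 1 counting unit, with the identifiers of the genes linked by a plus sign. There were 85 of them among 24525 gene features, after leaving out 2 further ones that hold mitochondrial genes. The plus sign in the identifier decided which features belong, although the choice of joined features as a subject was made with earlier results of these data known. Of the 85, 83 join 2 genes, 1 joins 3 and 1 joins 4. RNA came from testicular parenchyma of 24 Holstein bulls castrated at 72 wk of age, 8 bulls on each of 3 diets fed from 2 to 32 wk. By the labels, crude protein (CP) made up 20% of the HD, 17% of the MD and 12.2% of the LD diet. Total digestible nutrients (TDN), a measure of energy supply, made up 67.9%, 66% and 62.9%. After the dietary period all bulls were fed the MD diet, so every group had 1 common diet for the remaining weeks before tissue was taken. The study asked whether early life nutrition leaves a difference in the testicular transcriptome after puberty.

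Genes can overlap on a chromosome in several ways. One gene may lie inside another, the end of one may run into the start of its neighbour, or an annotated transcript may read through from one gene into the next. A read from shared exon sequence cannot be credited to either gene, and counting schemes built on exon bins therefore usually merge such genes. An exon bin is a stretch of exon that the same set of transcripts shares. The count of a joined feature is thus the sum of what its genes yielded, and only the bins can show which stretch of it was read. The testis is known for transcribing an unusually large part of the genome. The files give Ensembl identifiers with no gene symbols, and the reference table used here does not pair them, so the functions of the joined genes are not described. For the same reason the tissue label was not checked against cell type markers. The features are numbered from 1 to 85 by falling mean count over the 24 bulls. Bin lengths were not used here, so this order reflects reads and not transcript abundance per length. Levels are given as CPM, counts scaled to a common library size after TMM normalization, and differences as log2 fold changes. In bulk tissue, fewer cells of a type and less RNA per cell cannot be told apart.

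A library held 9163675 to 21902110 counts on gene features. HD bull 14 had the smallest library, and stood apart from the other bulls in many of the features described here. Values without that bull are therefore given where a result rests on it. The share of reads that fell outside exons was 12.3% ± 2.17 (SD, n = 8) in HD, 14.5% ± 3.28 (SD, n = 8) in MD and 13.3% ± 1.83 (SD, n = 8) in LD bulls. Reads left uncounted because they fitted more than 1 feature came to only 0.165% to 0.347%, and these are not part of the joined features. Reads left uncounted for low quality came to 17.88% in HD bull 8 and 20.99% in HD bull 12. The remaining bulls, HD bull 14 among them, had 6.63% to 11.30%. The part of this share in results that changed without HD bull 8 or HD bull 12 was not tested. The base of all percentages in this paragraph is the counts on features plus the aligned reads left uncounted. A read crossing bins counts in each bin, so this base exceeds the number of reads.

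The joined features were widely detected. Each of the 85 had at least 1 count in some library, against 86.9% of the 24438 features of a single gene. In every one of the 24 libraries, 72 (84.7%) had at least 1 count, compared with 62.1% of the single-gene features. With a minimum of 10 counts these values were 60 (70.6%) and 52.1%. A single library detected between 74 and 82 joined features, with the lowest number in HD bull 14. At the low end, features 83, 84 and 85 had counts in 1 library each. Feature 83 is the one that joins 4 genes (ENSBTAG00000046631+ENSBTAG00000046716+ENSBTAG00000047102+ENSBTAG00000048089), and it held 2 counts in a single bull. Another 10 features, numbered 72, 73 and 75 to 82, were detected in 8 to 23 of the libraries. The filter on low counts passed 71 joined features (83.5%) and 61.1% of the single-gene features. The 14 left out had mean counts of at most 6.38 and together held 0.0262% of the counts on joined features. No test of these differences in detection was made, as the joined features also have more bins.

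Together the joined features took 0.656% to 0.899% of the counts of a library. The share was 0.656%, 0.791% and 0.899% (lowest, median and highest) in HD bulls, 0.800%, 0.835% and 0.862% in MD bulls, and 0.770%, 0.827% and 0.876% in LD bulls. HD bulls thus covered the whole range of the other diets, and HD bull 14 lay below all others. The mean was 0.804% ± 0.0769 for HD, 0.835% ± 0.0197 for MD and 0.824% ± 0.0317 for LD bulls (SD, 8 each). No difference exceeded the spread between bulls by a two-sided exact permutation test over 12870 regroupings. Exact p-values were 0.320 (HD and MD), 0.533 (HD and LD) and 0.452 (MD and LD), all of which became 0.533 when adjusted over these 3 comparisons by the Benjamini-Hochberg method. Without HD bull 14 the HD mean was 0.825% ± 0.0524, nearly equal to that of LD bulls.

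Few features carried most of these counts. Feature 1 alone held 16.2% of them, the first 3 held 35.3% and the first 10 held 72.3%. Among the 71 that passed the filter, 16 had a mean above 100 CPM, 35 lay between 10 and 100, 15 between 1 and 10, and 5 below 1 CPM. Their median of 24.1 CPM compares with 18.6 CPM for the single-gene features that passed. Joined features sum over several genes and have more bins, and a read crossing bins counts in each. The part of this in the difference was not tested.

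**Figure D1:**
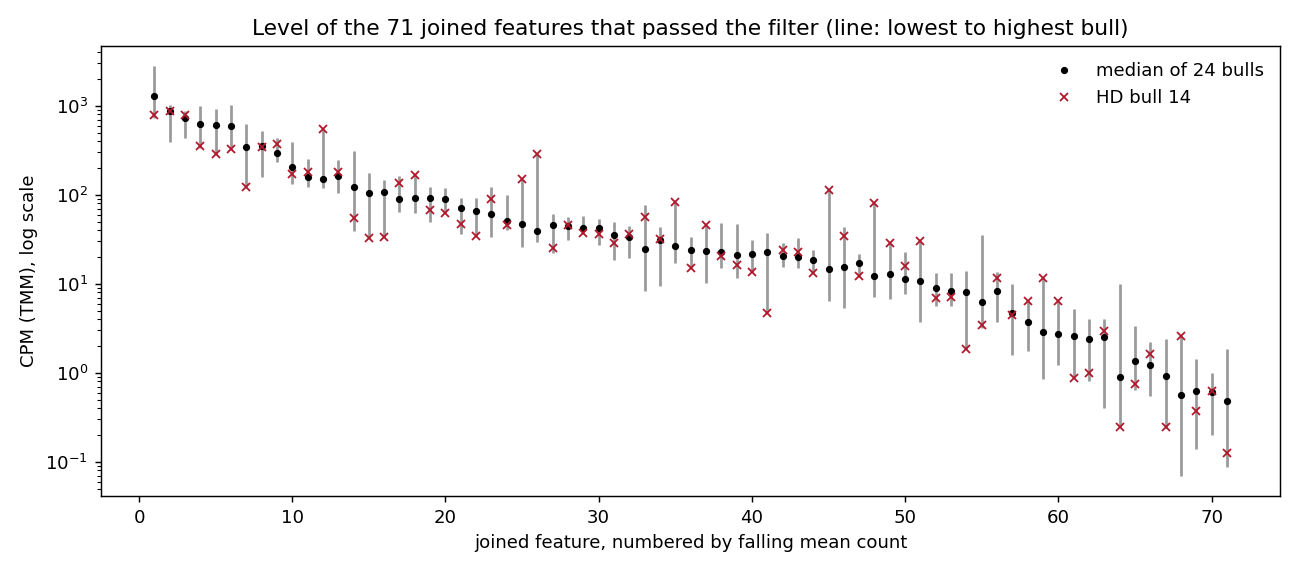
Level of each of the 71 joined features that passed the filter, in CPM on a log scale, ordered by falling mean count. Grey lines run from the lowest to the highest of the 24 bulls, black points are medians and red crosses mark HD bull 14, which sits at the top of the line in features 12, 26, 45 and 48 and at the bottom in features 7 and 41.

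Feature 1 (ENSBTAG00000047677+ENSBTAG00000006189) had 7 bins. Its level was 781, 1465 and 2770 CPM (lowest, median and highest) in HD bulls, 724, 1115 and 1674 in MD bulls, and 1000, 1236 and 1628 in LD bulls. The groups overlapped, and both the widest range and the highest value, in HD bull 8, belonged to HD. Feature 2 (ENSBTAG00000018423+ENSBTAG00000045885) was far steadier, with a coefficient of variation (CV) of 13.7% within diets. It lay at 835, 867 and 913 CPM in LD bulls and at 790, 871 and 997 in MD bulls. The HD bulls spanned 389 to 1013 CPM, and the lowest value, from HD bull 8, was the only one of the 24 below 771 CPM. Feature 3 (ENSBTAG00000047346+ENSBTAG00000008306) averaged 701 CPM and ranged from 429 CPM in LD bull 2 to 872 CPM in LD bull 1. Features 4 to 8 averaged 350 to 614 CPM, and in each the highest bull exceeded the lowest by 2.98 to 5.20 times.

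The typical spread between bulls was like that of other genes. The biological CV that edgeR estimated per feature had a median of 27.1% over the joined features that passed, and of 27.4% over the single-gene ones. Within diets, the CV of the CPM ran from 10.2% to 142% around a median of 27.8%. For the 65 features with more than 3 counts in every bull, the highest bull exceeded the lowest by 3.29 times in the median. In 20 of these the ratio was above 5, and in 8 it was below 2.

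The bins showed how unevenly a joined feature was read. Those that passed the filter had 4 to 120 bins, with a median of 14, and the single-gene features that passed had a median of 9. Of their 1196 bins, 671 (56.1%) had a mean of at least 10 counts, compared with 59.2% in the single-gene features. No count fell on 44 of the bins (3.68%) in any library, and these belonged to 14 of the features. The most covered bin held 20.2% of a feature's counts in the median, and in 15 features it held more than 50%. It was the first or the last bin in 22 features.

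To describe the shape of each feature, its bins in numbered order were divided into a first and a second run of at least 2 bins. The division was placed where it best separated the log2 mean counts, with a pseudocount of 0.5. The mean log2 level of the runs differed by 2.10 in the median of the 71 joined features and by 1.33 in the median of 12731 single-gene features with at least 4 bins. A difference above 3, equal to 8-fold, was found in 21 joined features (29.6%) and in 12.4% of the single-gene ones. The first run was the higher one in 13 of the 21 and the second run in 8. The joined features have more bins, and the part of that in these shares was not tested. Short bins collect fewer reads, so a low run can hold short bins.

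In feature 3, bins 1 to 8 held a mean of 1228 counts per bin and bins 9 to 14 a mean of 47.9. Feature 11 carried 192 counts per bin on its first 13 bins and 2.75 on the last 3. Feature 49 was almost silent over bins 1 to 14, at 0.527 counts per bin, while bins 15 to 17 held 61.0, and bin 16 alone took 67.1% of its counts. Feature 14 (ENSBTAG00000045109+ENSBTAG00000006253), with 50 bins, held 4.68 counts per bin over bins 1 to 10 and 47.8 over bins 11 to 50. In these features, nearly all reads came from 1 stretch of the joined unit. Feature 52 (ENSBTAG00000045476+ENSBTAG00000019081) was the opposite case. It had the most bins, 120, no bin with a mean of 10 counts, and only 4.77% of its counts on its most covered bin, at a mean level of 8.95 CPM. Features 7, 8, 14 and 21 also spread their counts widely, with at most 6.86% on any bin. At the other end, feature 57 held 71.9% of its counts on 1 of 5 bins, feature 35 held 71.6% on 1 of 4, and features 13, 49 and 56 held 63.9% to 67.1%.

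Feature 45 (ENSBTAG00000048190+ENSBTAG00000026102) was read over a short block inside a silent stretch. Of its 21 bins, bins 12, 13 and 14 held 38.9%, 30.7% and 28.6% of the counts, and 4 bins held none. It was also the feature in which 1 bull stood out by the widest ratio among those with more than 3 counts in every bull, 17.7 between the highest and the lowest. Its level was 10.95, 17.6 and 112 CPM (lowest, median and highest) in HD bulls, 6.33, 13.5 and 27.7 in MD bulls, and 6.34, 14.6 and 23.9 in LD bulls. The highest value was that of HD bull 14, and the other 7 HD bulls did not exceed 28.2 CPM. Feature 48 (ENSBTAG00000046114+ENSBTAG00000016936) showed the same bull at the top. Its bins 1 to 3 held nearly all counts, 79.1 CPM in HD bull 14 and 6.92 to 18.5 CPM in the other 23 bulls. Bins 4 to 6 stayed at or below 0.870 CPM in all bulls.

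Feature 25 (ENSBTAG00000003485+ENSBTAG00000000736) had 2 expressed stretches that moved apart. Over bins 21 to 27, HD bull 14 had 141 CPM and the other 23 bulls 13.0045 to 45.3 CPM. Over bins 1 to 20, the same bull had 9.45 CPM, the lowest of all, and the others had 9.55 to 31.9 CPM. The highest value of this first stretch was that of MD bull 6. Over bins 21 to 27 that bull had 30.04 CPM, close to the median of 30.3 CPM over the bulls other than HD bull 14. Summed over all bins, the feature was at 150 CPM in HD bull 14, and the sum alone does not show that its first part was low there.

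**Figure D2:**
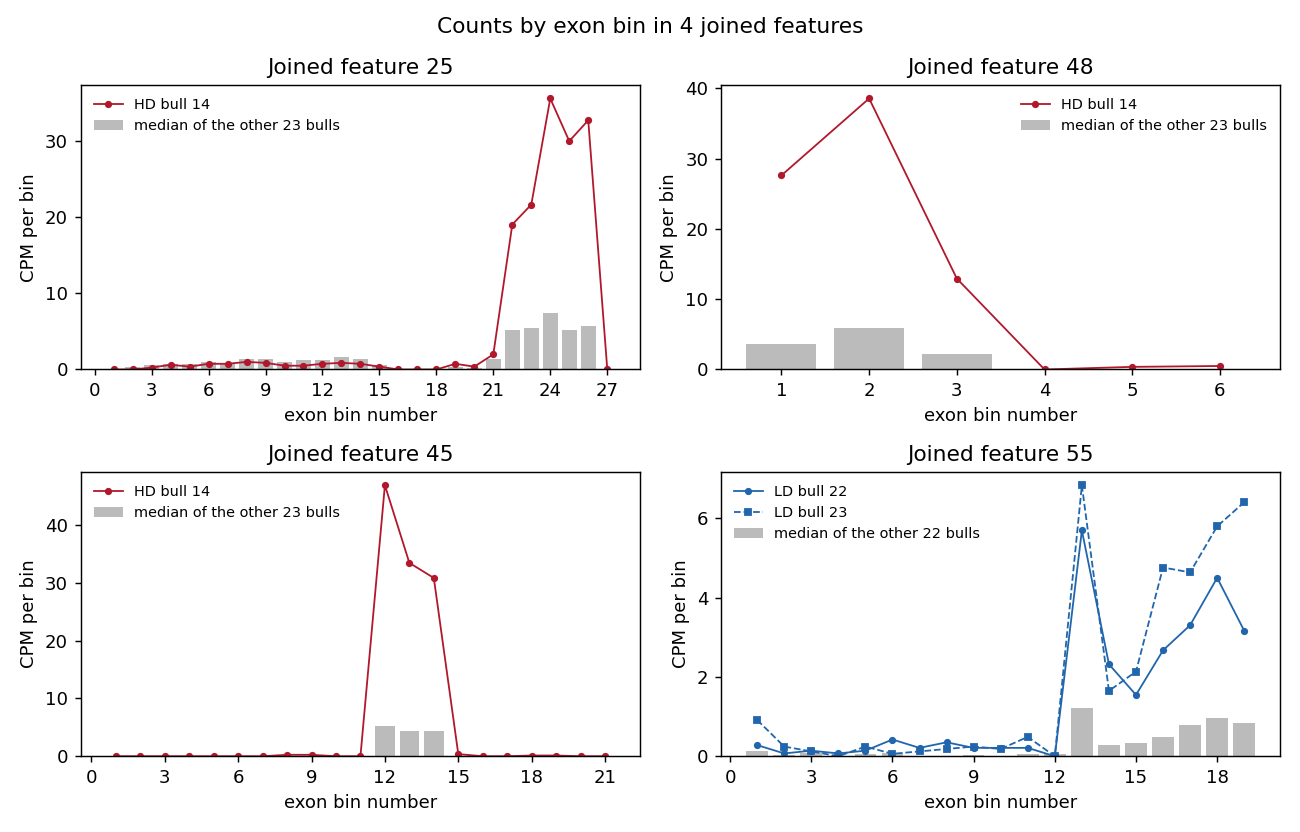
CPM per exon bin in joined features 25, 48, 45 and 55. Grey bars are the median of the other bulls, and lines are HD bull 14 or LD bulls 22 and 23, whose excess lies on bins 22 to 26, 1 to 3, 12 to 14 and 13 to 19.

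Feature 55 (ENSBTAG00000039861+ENSBTAG00000014628) had low counts over bins 1 to 12 and most of its reads on bins 13 to 19. On this second run, LD bull 22 had 23.2 CPM and LD bull 23 had 32.2 CPM, and the highest of the remaining 22 bulls, HD bull 10, had 11.4 CPM. Over bins 1 to 12 those LD bulls had 2.32 and 2.81 CPM, the highest of the 24, next to 2.00 CPM in MD bull 6. Their ratio to the next bull was thus larger on the second run. Feature 43 (ENSBTAG00000043709+ENSBTAG00000007722), with 4 bins, behaved otherwise. MD bull 6 and HD bull 12 had 23.8 and 23.2 CPM on bins 3 and 4, against at most 12.2 CPM in the remaining bulls. On bins 1 and 2 the same bulls had 6.98 CPM, the lowest of the 24, and 9.45 CPM, where the highest bull had 21.5 CPM. In feature 9 the runs rose and fell together over the bulls, from 9.63 to 18.04 CPM on bins 1 to 3 and from 225 to 418 CPM on bins 4 to 7.

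**Figure D3:**
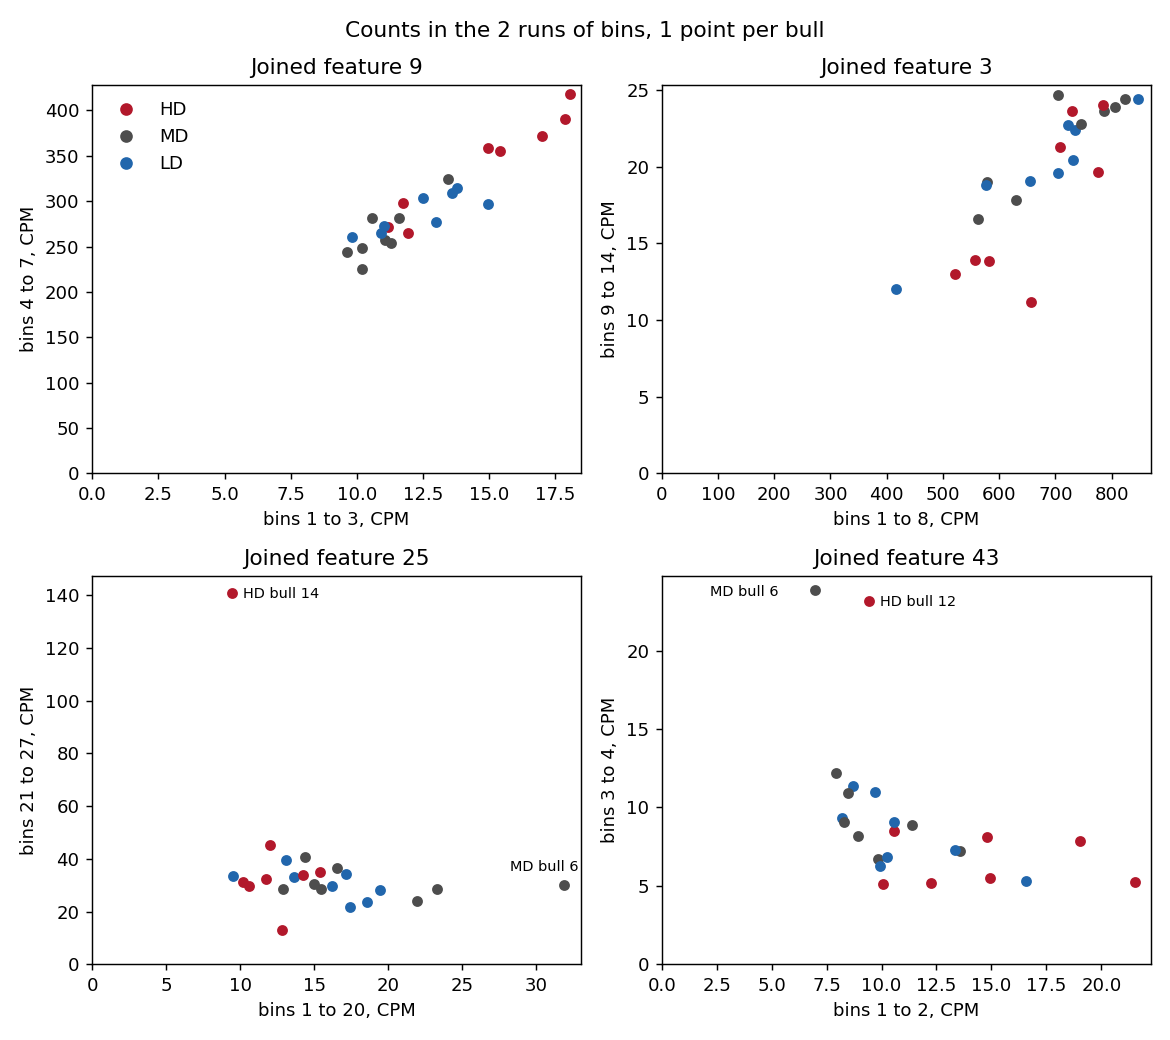
CPM on the first and the second run of bins of joined features 9, 3, 25 and 43, with 1 point per bull coloured by diet. The points of features 9 and 3 lie along a rising band, while HD bull 14 in feature 25 and MD bull 6 and HD bull 12 in feature 43 lie far above the others on the second run only.

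Feature 33 (ENSBTAG00000045492+ENSBTAG00000019612+ENSBTAG00000046668) is the only feature of 3 joined genes that passed the filter, and it varied widely in every diet. Its level was 9.54, 23.5 and 75.9 CPM (lowest, median and highest) in HD bulls, 8.22, 24.4 and 51.7 in MD bulls, and 9.79, 23.5 and 52.4 in LD bulls. The medians of the diets were nearly equal, although bulls of 1 diet differed by more than 5 times. Bins 1 and 2 held 38.7% and 40.3% of its counts, and their order differed between bulls. HD bull 14 had 33.7 CPM on bin 1 and 14.7 CPM on bin 2, whereas HD bull 11 had 21.6 and 42.6 CPM. Feature 64 (ENSBTAG00000001308+ENSBTAG00000002786) had the largest CV, 142%. A median of 0.887 CPM in HD, 0.868 CPM in MD and 0.905 CPM in LD bulls contrasted with 9.82 CPM in HD bull 8, 6.32 CPM in LD bull 21 and 3.64 CPM in MD bull 4. Nearly all of this was on bin 3, which held 85.1% of the feature's counts. As this feature averaged 22.1 counts per library, its low values rest on few reads.

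HD bull 14 was the highest of the 24 bulls in 14 and the lowest in 13 of the 71 joined features, and HD bull 8 in 13 and 12. Over all 15005 features tested, HD bull 14 was highest in 19.7% and lowest in 18.9%, shares close to the 19.7% and 18.3% of the joined features. Feature 26 was at 284 CPM in HD bull 14 and at 29.1 to 59.4 CPM in the others. Feature 12 (ENSBTAG00000027980+ENSBTAG00000046192), named after its values were seen, was at 550 CPM there and at 119 to 198 CPM elsewhere. By contrast, features 7, 15, 16, 41 and 54 were lowest in this bull.

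The comparison of HD with MD bulls asked whether the joined features differed between the higher and the medium plane of early nutrition. Of the 71 tested, 8 (11.3%) passed an adjusted p of 0.1 in edgeR, 6 of them higher and 2 lower in HD bulls. Over all 15005 features tested the share called was 14.1%, with 8.68% higher and 5.42% lower, which is near the share of the joined features. The median log2 fold change was 0.07 over the joined features and 0.00 over all features, and 39 of the 71 (54.9%) lay above 0, against 50.3% of all. The adjusted p of the 8 lay between 0.0702 and 0.0986, close to the threshold. No joined feature had HD and MD bulls without overlap, and 0.0467% of all features tested did.

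Feature 9 (ENSBTAG00000013761+ENSBTAG00000048095) had the smallest p. Its level was 277, 372 and 437 CPM (lowest, median and highest) in HD bulls, 236, 267 and 338 in MD bulls, and 270, 301 and 328 in LD bulls. All 8 HD bulls lay above the MD median, but the ranges overlapped between 277 and 338 CPM. The mean was 356 ± 59.2 CPM in HD and 276 ± 31.7 CPM in MD bulls (SD, 8 each), a log2 fold change of 0.37 ± 0.11 (SE, edgeR adjusted p = 0.0702). Of its 6 well covered bins, those with a mean of at least 10 counts, 5 were higher in HD than in MD bulls. Bins are parts of the summed feature in the same bulls, so here and below their directions are no further evidence for a call.

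Feature 26 (ENSBTAG00000004558+ENSBTAG00000036401) had the largest fold change of the 8. It was at 33.4, 46.7 and 284 CPM in HD bulls, 29.1, 35.8 and 45.9 in MD bulls, and 34.4, 37.9 and 56.7 in LD bulls. Only HD bull 14 lay far from the rest, and the other HD bulls reached at most 59.4 CPM. The log2 fold change was 1.01 ± 0.33 (SE, edgeR adjusted p = 0.0715) with this bull and 0.29 ± 0.15 (SE, adjusted p = 0.158) without it. The call therefore rests on HD bull 14. All 7 of its bins were higher in HD bulls, by means that include HD bull 14.

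Features 23, 38, 24 and 18 were the other ones called higher in HD bulls. Feature 23 was at 55.7, 77.3 and 122 CPM in HD bulls and at 33.7, 54.2 and 71.5 in MD bulls, a log2 fold change of 0.61 ± 0.19 (SE, edgeR adjusted p = 0.0702). The difference lay mainly on its bins 1 to 5, with medians of 61.2 CPM in HD and 34.6 CPM in MD bulls, as bins 6 to 10 had 17.1 and 15.8 CPM. Feature 38 was at 19.6, 27.4 and 48.3 CPM in HD and at 14.99, 20.1 and 27.6 CPM in MD bulls, with a log2 fold change of 0.53 ± 0.17 (SE, edgeR adjusted p = 0.0740). All 11 of its well covered bins were higher in HD. Feature 24 reached 99.7 CPM in HD bulls and 61.7 CPM in MD bulls, with 0.46 ± 0.16 on the log2 scale (SE, edgeR adjusted p = 0.0840), and 6 of the 8 HD bulls lay above the MD median. Feature 18 was at 87.1 to 165 CPM in HD and at 66.4 to 122 CPM in MD bulls, with 0.43 ± 0.16 on the log2 scale (SE, edgeR adjusted p = 0.0914). All 13 of its well covered bins were higher in HD, and its log2 fold change was 0.33 ± 0.15 without HD bull 14 (SE, edgeR adjusted p = 0.123). It was called in only 7 of the 24 fits that left out 1 bull each.

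Lower levels in HD bulls were called for features 62 and 27. Feature 62 (ENSBTAG00000013706+ENSBTAG00000045720) was at 0.800, 1.61 and 2.86 CPM (lowest, median and highest) in HD bulls, 1.92, 2.93 and 3.36 in MD bulls, and 1.40, 2.93 and 4.07 in LD bulls. Every HD bull was below the MD median. The log2 fold change was -0.74 ± 0.25 (SE, edgeR adjusted p = 0.0761), at a depth of 35.0 counts per library on average. Feature 27 (ENSBTAG00000047575+ENSBTAG00000015007), with 41 bins of which 13 held no count, was at 22.04, 41.8 and 47.7 CPM in HD bulls. It was at 39.6, 48.4 and 60.8 CPM in MD bulls and at 33.6, 49.2 and 59.3 CPM in LD bulls, and again every HD bull was below the MD median. Its 24 well covered bins were all lower in HD bulls, with a log2 fold change for the whole feature of -0.41 ± 0.16 (SE, edgeR adjusted p = 0.0986). Without HD bull 14 the log2 fold change was -0.36 ± 0.15 (SE, edgeR adjusted p = 0.105), and feature 27 was called in only 6 of the 24 fits that left out 1 bull.

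**Figure D4:**
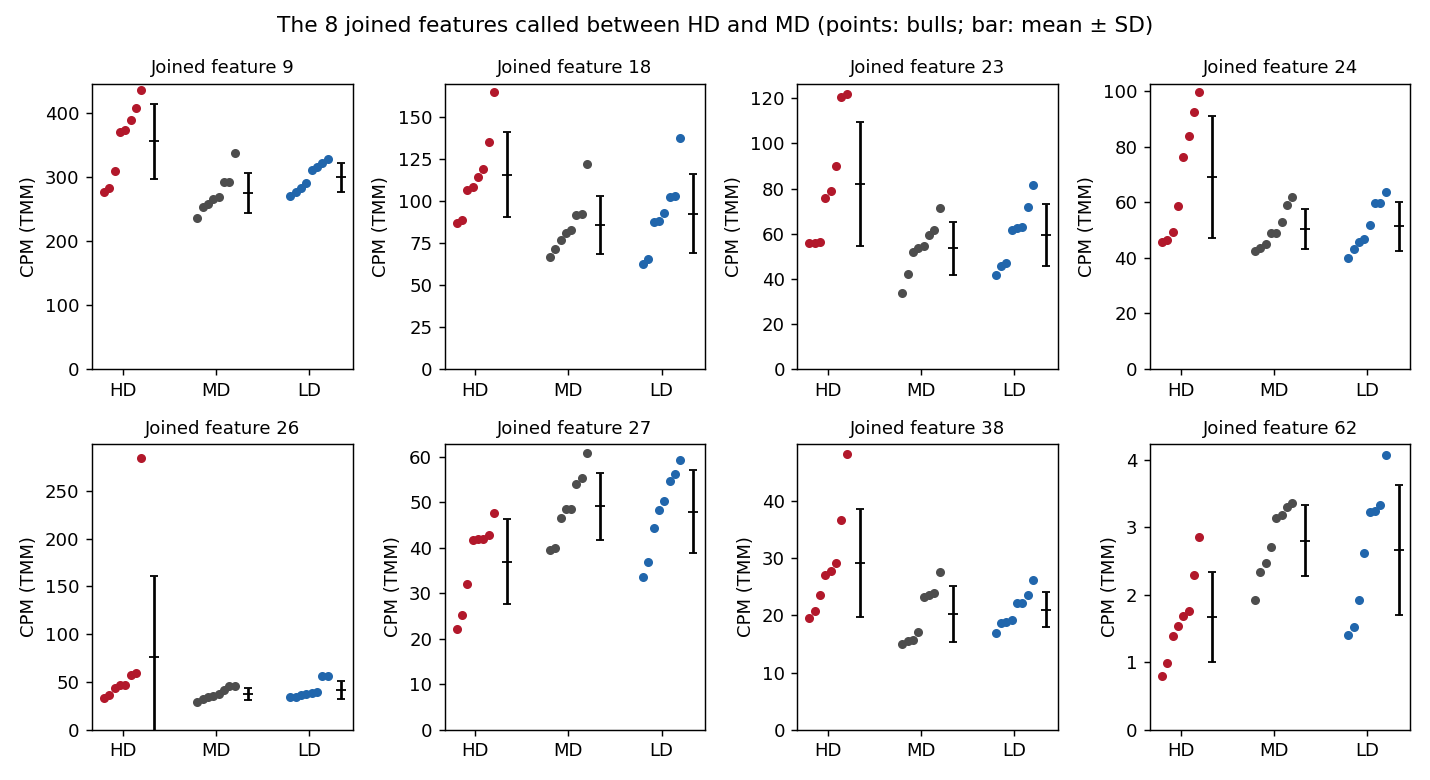
CPM of the 8 joined features called between HD and MD bulls, with 1 point per bull in each diet and the mean ± SD beside the points. The 24 points of each panel overlap between HD and MD, and in feature 26 HD bull 14 at 284 CPM lies far above the others, where the lower SD bar is cut at 0.

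How many joined features were called depended on single bulls. Leaving out 1 bull at a time gave 0 to 16 calls, and none in 8 of the 24 fits, those without HD bulls 7, 8 or 13 or MD bulls 4, 6, 16, 17 or 19. In each of these 8 fits only 1 feature was called among all those tested. Calls numbered 16 (22.5%) without HD bull 12 or MD bull 18, where 26.7% and 23.9% of all features were called. They numbered 13 (18.3%) without HD bull 11 or MD bull 5, against at least 20.5% of all features in each. Without HD bull 10, MD bull 15, or LD bulls 3 or 20 there were 5 (7.04%), against 10.7% to 11.7% of all features. Without HD bull 14 there were 11 calls, 5 of them among the 8, while the share over all features tested rose to 23.9%. Features 9, 23 and 62 were each called in 16 of the 24 fits. Features 26 and 38 were each called in 15 and feature 24 in 12, so none of the 8 was called in all. The direction of the 8 held in each of these fits. DESeq2 with its defaults called 12 joined features, 7 of them among the 8, and 19.9% of all features.

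**Figure D5:**
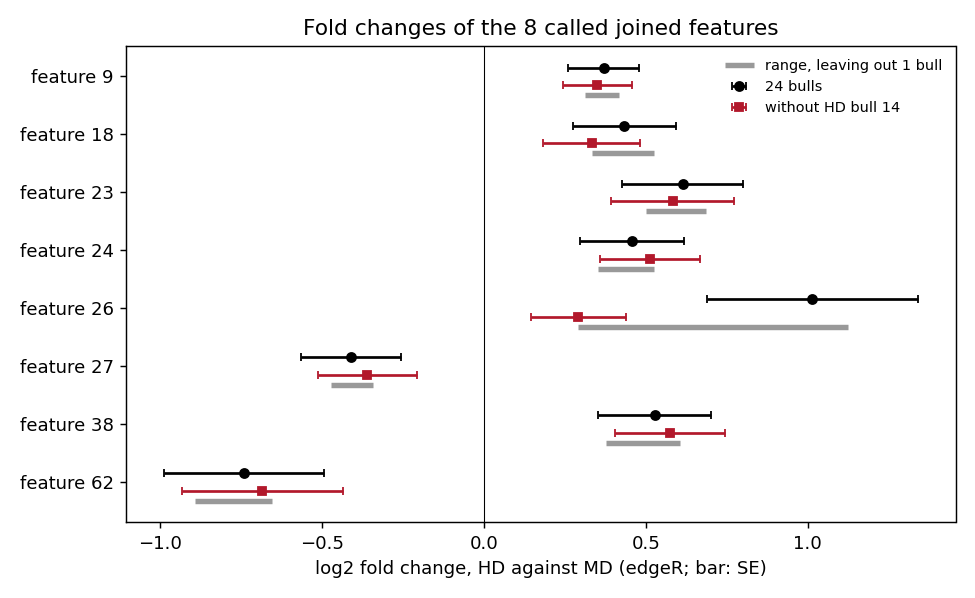
Log2 fold change of HD against MD for the 8 called joined features, with SE bars, for all 24 bulls (black) and without HD bull 14 (red), and the range over fits that leave out 1 bull (grey). Each range keeps to 1 side of 0, and feature 26 shows the widest, from 0.29 to 1.13.

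Many of these features moved with the share of reads outside exons, whose mean was lower in HD than in MD bulls. A fit with this share beside diet, chosen after seeing the data, called 33 of the 71 joined features for the share (46.5%), 16 rising and 17 falling with it. Over all features tested 52.6% were called, 28.1% rising and 24.5% falling. Of the 8 features called between HD and MD, 4 were among the 33, features 9, 23, 24 and 38, and all of these fell as the share rose. Per percentage point, feature 46 (ENSBTAG00000031209+ENSBTAG00000045035) rose by 0.29 ± 0.04 on the log2 scale (SE, edgeR adjusted p = 7.7e-06), and it ranged from 5.38 CPM in LD bull 2 to 43.4 CPM in LD bull 1. Feature 1 fell by 0.13 ± 0.02 on the log2 scale per percentage point (SE, edgeR adjusted p = 1.56e-05). With the share as a covariate, none of the 71 was called between HD and MD, and 1 of the 15005 features (0.00666%) was. The 8 features then kept their direction, with log2 fold changes of 1.05 for feature 26, 0.44 for feature 18, 0.38 for feature 23, 0.28 for feature 38, 0.27 for feature 9, 0.24 for feature 24, -0.31 for feature 27 and -0.61 for feature 62. The part of this share in the differences was not tested further.

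Just outside the threshold lay feature 13, at an edgeR adjusted p of 0.101 and a log2 fold change of 0.39 ± 0.15 (SE). Every HD bull was above the MD median of 133 CPM. Features 45 and 17 came next, with adjusted p of 0.106 and 0.107. Feature 45 went from a log2 fold change of 1.01 ± 0.40 to 0.26 ± 0.27 without HD bull 14 (SE, edgeR adjusted p = 0.496). At an unadjusted p under 0.05 there were 16 joined features (22.5%), 12 higher and 4 lower in HD bulls, compared with 29.0% of all features.

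The comparison of HD with LD bulls used the same HD bulls, so its values are not a second, independent look at them. No joined feature passed the adjusted p of 0.1 in edgeR, and none of the 15005 features did (0%). DESeq2 with its defaults called 1 joined feature (2.08% of those given an adjusted p) and 6.01% of all features. At an unadjusted p under 0.05 in edgeR there were 12 joined features (16.9%), 9 higher and 3 lower in HD bulls, compared with 17.7% of all features. The smallest adjusted p was 0.206, shared by features 38 and 62. For the features called against MD, the log2 fold changes against LD were 0.25 ± 0.11 for feature 9, 0.47 ± 0.19 for feature 23, 0.86 ± 0.32 for feature 26, 0.47 ± 0.17 for feature 38, 0.43 ± 0.16 for feature 24, 0.32 ± 0.16 for feature 18, -0.67 ± 0.25 for feature 62 and -0.37 ± 0.16 for feature 27 (SE). Features 26, 38, 24 and 62 had the smallest p, and none can be called. Without HD bull 14 the log2 fold change of feature 26 against LD was 0.15 ± 0.15 (SE, edgeR adjusted p = 0.551). Without HD bull 12, edgeR called 3 joined features (4.23%) and 4.75% of all features.

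Between MD and LD bulls no joined feature was called either (0% of all features tested). Feature 55 was the only one with an unadjusted p under 0.05 in edgeR, compared with 1.07% of all features. It was at 3.18, 5.16 and 7.02 CPM (lowest, median and highest) in MD bulls and at 5.01, 6.51 and 35.0 CPM in LD bulls. The mean of 12.4 ± 11.3 CPM in LD bulls rested on LD bulls 22 and 23, and the groups overlapped. The log2 fold change was -1.31 ± 0.37 (SE, edgeR adjusted p = 1.00). Features 31, 60 and 51 followed, with log2 fold changes of 0.25 ± 0.14, 0.32 ± 0.25 and -0.31 ± 0.28 (SE).

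A diet that moved 1 of the joined genes and not its partner would change the share of counts between bins. Bin usage could be tested with limma in 55 joined features that had at least 2 bins with a mean of 10 counts. Bins below that mean were left out, so a joined gene with only such bins was not tested. None passed an adjusted p of 0.1 between HD and MD bulls, where 0.120% of 10808 features did, nor between HD and LD (0%) or MD and LD bulls (0%). At an unadjusted p under 0.05 there were 5 between HD and MD bulls, features 25, 43, 23, 47 and 28, where 1.23% of all features passed. There was none between HD and LD (0.620% of all features) or MD and LD bulls (0.102%). These shares over all features lie below the rate that such a threshold passes where nothing differs. The test was thus strict here, and a lack of calls cannot show that bin shares stayed equal. Feature 25 had the smallest p, 0.00197 (limma, adjusted p = 0.711). Its bin 26 took a larger part in HD than in MD bulls, by 0.59 on the log2 scale, and its bin 11 a smaller one, by -0.82. HD bull 14, with 141 CPM on the second run, is among the HD bulls of this comparison. In feature 43, bin 2 took a larger part in HD bulls, by 0.76 on the log2 scale, and bin 4 a smaller one, by -0.89. In feature 28 the estimate for bin 5, which held 63.0% of its counts, was higher in HD bulls by 0.50. None of these differences in single bins passed the adjusted p of 0.1. Without HD bull 8 or HD bull 12, 1 joined feature (1.82% of 55) was called for bin usage between HD and MD bulls, where 0.175% and 0.194% of all features were called.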

How the data were processed

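Each bull gave 1 TruSeq Stranded mRNA library, read over 75 bases. Per the submitters' processing notes, CASAVA 1.9, TopHat2 2.0.10 and Bowtie 1.1.2 were used with UMD3.1, which the study's methods give as UMD3.1.87. The study's methods name featureCounts for counts per gene. The counter of the exon bins and its strand setting are not given in the sources used here. Sources differ on the end of the diets (30, 31 or 32 wk), and 32 wk is that of the series description. The authors deposited raw read counts per exon bin, not normalized. Here bins were summed per feature, and a read crossing bins counts in each.

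Diets were compared with edgeR 4.0.16 in R 4.3.3 (TMM, filterByExpr, quasi-likelihood test, all 24 libraries in one fit, Benjamini-Hochberg adjustment over all features tested, adjusted p under 0.1). The SE is the log2 fold change over the square root of F. Bin usage was tested with limma 3.58.1 (voom, diffSplice), and shares with two-sided exact permutation tests (scipy 1.17.1). Both model steps were also run on simulated counts with planted changes. There the bins were drawn independently with a fixed spread, so that run does not show how the bin usage test acts on these data. Alternatives were DESeq2 1.42.0, other normalizations and filters, 1 bin per feature, a covariate and leaving out each bull. Bulls are separate animals, each 1 replicate, and at 9163675 to 21902110 counts per library their spread limits precision for all but the lowest features.

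The members, lists and tests were chosen with earlier results of these data known. Features were described singly if called (or with the 4 smallest p where none was), among the 10 most abundant, the 5 with most bins, the 5 with the largest CV, joining at least 3 genes and passing the filter, among the 5 smallest p for bin usage, or among the 5 largest or smallest shares on 1 bin (at least 4 bins and 50 counts). Without symbols, the planned functional groups and cell type markers were not applied. Identifiers are printed for 2 features called higher (smallest p, largest fold change), 2 called lower, and some not called. Features 11, 12, 17, 41, 46, 54, 83, 84 and 85 meet none of these rules and were named after their values were seen. The division into runs was also chosen after seeing the data.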

Additional observations from a re-analysis of the deposited data

Results flagged for a closer look

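The level of each joined feature described singly, and the share of counts on joined features, was looked at for a bull far from the other 7 of its diet, by the gap to the nearest bull divided by the range of the diet, with Dixon's limit for 8 samples. Of 126 groups, 20 exceeded the limit, and chance exceeds it in about 1 in 20 groups. Features 26, 45, 48, 64 and 68 were described singly for their large CV and hold 7 of the 20, so the 20 of 126 cannot be read against that rate. HD bull 14 accounted for 9. Its gap was 0.897 of the range in feature 26, 0.911 in feature 48, 0.830 in feature 45, 0.841 in feature 35 (83.1 CPM against 19.8 to 29.8), 0.747 in feature 25, 0.654 in feature 68 (2.61 CPM against 0.0889 to 0.962), 0.624 in feature 60 (6.46 CPM against 1.24 to 3.21), 0.607 in feature 49 (28.7 CPM against 9.55 to 17.1) and 0.544 in feature 51 (30.6 CPM against 3.73 to 15.98), and it was the highest HD bull in all 9.

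HD bull 8 was low in feature 2 (0.612 of the range) and feature 28 (0.531, 31.2 CPM against 44.5 to 56.3) and high in feature 64 (0.902). In the same feature 64, MD bull 4 (0.560) and LD bull 21 (0.655) were high within their diets. LD bull 2 was low in feature 4 (0.538, 336 CPM against 543 to 721) and feature 31 (0.657, 18.6 CPM against 30.3 to 36.4). MD bull 18 was high in feature 18 (0.538, 122 CPM against 66.4 to 92.0), MD bull 6 in feature 43 (0.702, 30.8 CPM against 16.5 to 20.8) and LD bull 23 in feature 42 (0.596, 29.1 CPM against 17.3 to 22.1), while MD bull 5 was low in feature 49 (0.628, 6.78 CPM against 12.4 to 15.8).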

How the results depend on the processing

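Between HD and MD bulls, 8 joined features were called. Scaling by library size only gave 15 calls (21.1%, against 23.6% of all features), 4 of them among the 8. Without a filter on low counts, with only HD and MD bulls in the fit, with reads outside exons as a covariate, and at an adjusted p under 0.05 the count was 0. In each of the first 3 of these settings only 1 of all features tested was called. For an adjusted p under 0.05 the share over all features is not given here, so that 0 is not a result about the joined features. DESeq2 (12 calls without and with its beta prior, 7 of them among the 8, and 19.9% and 19.8% of all features), edgeR with DESeq2 size factors (9, of which 7, and 14.5% of all), a mean of at least 10 counts (9, of which 8, and 14.5% of all) and the most covered bin (6, of which 3, and 9.63% of all) stayed within 1.5 times. Leaving out each bull gave 0 to 16. Between HD and LD bulls the count was 1 with DESeq2 defaults and 1 with its beta prior, where 6.01% and 6.71% of all features were called. Leaving out each bull gave 0 to 3 there. The 3 came without HD bull 12, where 4.75% of all features were called. Between MD and LD bulls the count was 0 in each fit, against at most 0.00469% of all features. Calls for bin usage between HD and MD bulls numbered 0 to 1 leaving out each bull, against 0.0369% to 0.214% of all features. They numbered 0 with bins of at least 30 counts and with the covariate, against 0.0898% and 0.0278% of all features. With the Simes adjustment they also numbered 0. Detection in every library counted 60 features at 10 counts and 70 with libraries thinned to the smallest. The differences in the share of counts kept their direction with the most covered bin and without feature 1. Leaving out each bull, chosen after seeing the data, gave -0.0439 to -0.00934 percentage points for HD minus MD, -0.0336 to 0.000998 for HD minus LD (above 0 only without HD bull 14) and 0.00252 to 0.0178 for MD minus LD. For the 41 features described singly, no called log2 fold change turned direction in 3681 refitted values, 116 lost and 34 gained a call, and of 3407 values not called in either fit 205 had the other sign. The causes were not tested. No paired analysis was possible because bull numbers are unique to each diet. Low depth limits features below about 1 CPM.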
